A study of Mus musculus with 8 samples.

Results

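Oxidative phosphorylation is carried out by 5 protein complexes of the inner mitochondrial membrane. Complexes I (NADH dehydrogenase), II (succinate dehydrogenase), III (cytochrome bc1) and IV (cytochrome c oxidase) pass electrons to oxygen, and complex V (ATP synthase) uses the proton gradient that complexes I, III and IV build. Most of their subunits are encoded in the nucleus, a few in the mitochondrial genome, and several complex IV subunits exist as paired isoforms, one made in most tissues and another in muscle, lung or testis. The genes described here were chosen by name, from the gene names in the array files. They are all genes whose names start with Ndufa, Ndufb, Ndufc, Ndufs, Ndufv, Uqcr, Atp5 or Cox4 to Cox8, together with Sdha, Sdhb, Sdhc, Sdhd and Cyc1. The rule took 119 of 39429 probes, which stand for 89 genes. Of these probes 116 were well above background on all 8 arrays and none was saturated, which left 86 of the 22921 genes tested. Of the 86, 77 code for structural subunits. The other 9 were taken by their names alone, among them the complex I assembly factors Ndufaf1 to Ndufaf4 and the complex IV-associated factor Cox7a2l. The probes for Cox8b, Cox8c and Cox7b2, isoforms of heart, testis or other restricted tissues, were not well above background on any array and were not tested. Atp5g1 and Uqcr10 were not read under the names that the rule uses and are not among the genes.

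The arrays measured RNA of pro-B cells, the B cell stage that rearranges the heavy chain locus, from BALB/c mice null for Rag1. The cells of all 4 groups therefore lacked the Rag1 recombinase. Bone marrow (BM) sorts each used 2 mice, and fetal liver (FL) sorts pooled on average 8 embryos of gestation day 16. The sorted cells were grown on OP9 stroma with IL-7 and transduced a day later, and the cells that carried the GFP of the retrovirus were sorted 4 days after that. BM cells received Lin28b or the empty vector pMIG, and FL cells received let-7b or the empty vector MSCV, with 2 arrays in each of the 4 groups. Lin28b binds let-7 precursors and stops them from being processed, so the comparisons within a tissue ask what this let-7 inhibitor does in adult cells and what the microRNA does in fetal cells.

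A level is given as log2 of an array's background-corrected signal minus the 75th percentile of that array, so 0 is the 75th percentile and 1 unit is a doubling. A gene is called changed where limma's p, adjusted by Benjamini-Hochberg over all 22921 genes, is under 0.05. Levels of different genes come from different probes and are not compared with each other. The 4 BM arrays lay on slide 1, and slides 2 and 3 each held 1 empty-vector and 1 let-7b array from FL. Tissue therefore cannot be told apart from empty vector, slide and scan. The FL arrays were dimmer, with a 75th percentile of 271 to 488 signal units against 1925 to 2234 in BM. Of 10 pro-B markers 9 could be tested, and all 9 were well above background on every array. Lin28b itself read -6.58 and -6.32 in BM with empty vector and -5.86 and -5.75 with the Lin28b virus, and 1.47 and 0.66 in FL with empty vector and -0.18 and -0.10 with let-7b. Neither difference was called (limma adjusted p = 1.00 and 0.270), and whether the probe reads the transduced part of the gene was not tested. In bulk RNA, fewer cells of a type and less RNA per cell cannot be told apart.

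The probes of this array are 60 bases long. The 6 shown here stand for members called between the tissues and read open in at least 1 frame over their whole length. They were picked by hand after the values were seen. They lie, in mouse build mm9, in Cox4i1 (chr8:123197924-123197983, plus strand) and Cox7a1 (chr7:30970337-30970948, plus strand), which are subunits of complex IV. Ndufv3 (chr17:31665148-31665207, plus strand) belongs to complex I, and Atp5d (chr10:79608230-79608289, plus strand) belongs to complex V. Ndufaf2 (chr13:108843015-108843074, minus strand) and Ndufaf4 (chr4:24830284-24830343, plus strand) are complex I assembly factors. The span of Cox7a1 is longer than the probe, so that probe crosses an intron. For Ndufv3 and Ndufaf4 the probe shown is the dimmer of 2.
Cox4i1: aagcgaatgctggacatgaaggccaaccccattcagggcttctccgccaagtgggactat
Cox7a1: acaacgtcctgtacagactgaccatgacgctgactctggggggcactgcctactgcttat
Ndufv3: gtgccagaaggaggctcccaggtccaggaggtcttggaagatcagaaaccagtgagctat
Atp5d: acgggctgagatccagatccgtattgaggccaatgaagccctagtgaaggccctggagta
Ndufaf2: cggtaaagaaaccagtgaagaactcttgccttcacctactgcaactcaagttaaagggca
Ndufaf4: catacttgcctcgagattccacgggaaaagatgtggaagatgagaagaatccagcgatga
The agent of the fetal liver treatment is shown beside them, as mature let-7b-5p in RefSeq (GRCm38.p6, chr15:85707325-85707346, plus strand), with its seed, bases 2 to 8, in capitals.
let-7b-5p: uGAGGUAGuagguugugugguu

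Between the tissues, under empty vector, the oxidative phosphorylation genes split. Of 86 members, 30 were higher in FL, 14 were lower and 42 did not pass the test. Among all genes 40.1% were called higher and 19.5% lower (59.6% either way), against 34.9% and 16.3% of the members (51.2%), a share somewhat under that background. The median member differed by 0.23 (FL minus BM, log2), and the median of all genes tested by 0.52. Against that all-gene median 35 members lay higher and 51 lower. Both FL arrays were higher than both BM arrays in 47 members and lower in 20, against 54.8% and 28.3% of all genes, and all 44 called members were among these 67.

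**Figure D1:**
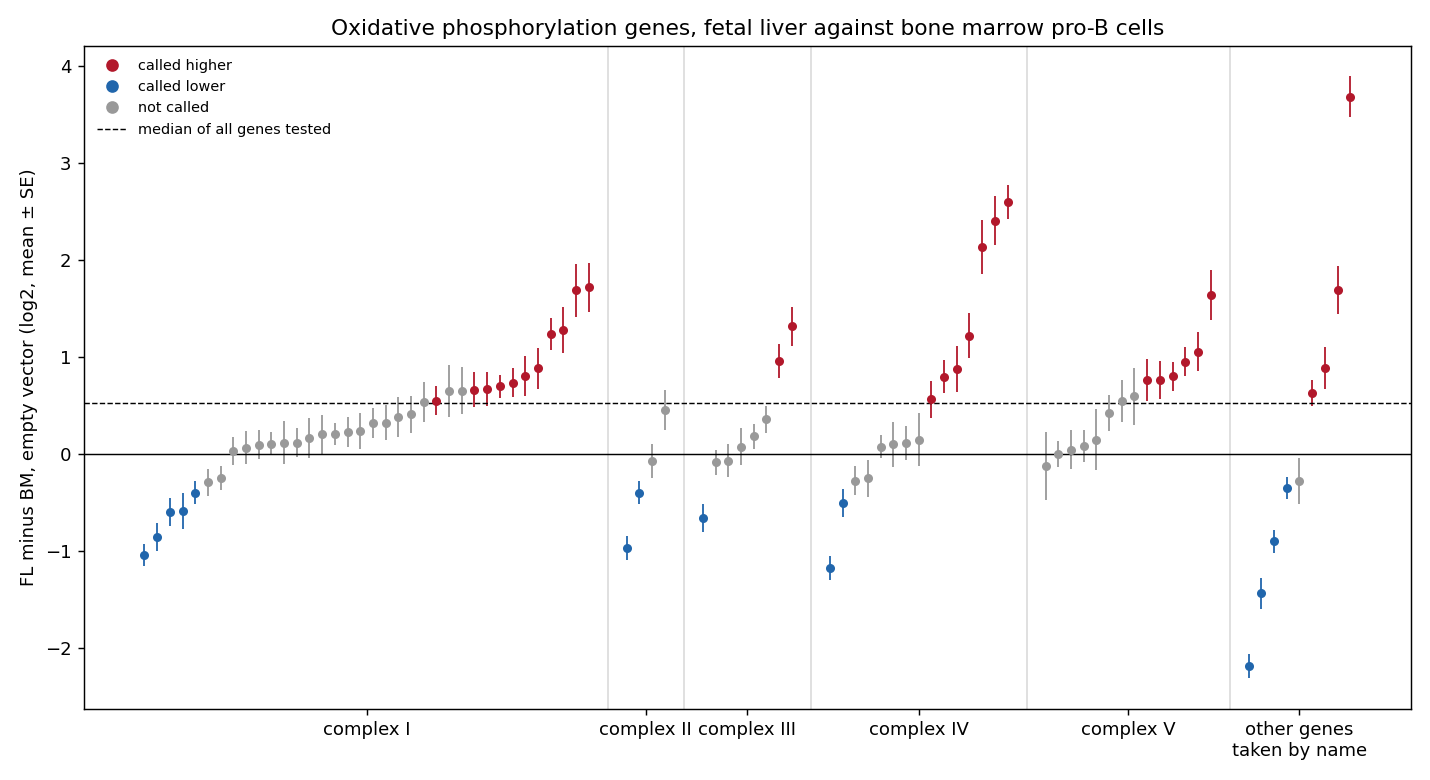
Each point is 1 of the 86 tested genes, as the difference FL minus BM under empty vector (log2) with limma's standard error (2 arrays a group), sorted within its complex. Red points were called higher, blue points lower, grey points not called, and the dashed line is the median of all genes tested (0.52). Complex V has 6 genes called higher (42.9%, against 40.1% of all genes) and 0 lower (against 19.5%). Complex II, with 4 genes, has 0 higher and 2 lower.

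Which members count as higher depended on how the arrays were scaled. Quantile normalization, which gives all arrays the same distribution of signals, moved the all-gene median from 0.52 to 0.04 and the member median from 0.23 to -0.21. It called 16 members higher (18.6%, against 25.7% of all genes) and 28 lower (32.6%, against 26.6%), and 11 of the 30 members called higher were not called under it, while 3 were called lower. Centring on the median of probes above background everywhere was the other scaling. Called in the same direction under all 3 scalings were 16 members higher (18.6%, against 24.9% of all genes) and 14 lower (16.3%, against 19.3%). These 30 genes are called stable in what follows. Correcting the background by normexp instead called 12 higher (14.0%, against 38.4% of all genes) and 4 lower (4.65%, against 7.18%). Of the 44 calls 28 were lost under it. Of the falls it kept only Ndufaf4, Ndufaf2, Ndufa4 and Ndufab1, so Sdhd, Sdha, Atp5s, Ndufs1 and Uqcrb lost their calls. So did Ndufb6, Ndufa5, Ndufb3, Cox7b and Ndufaf1. Lost rises included Uqcrc1, Atp5c1, Cox4i1, Cox6a1, Cox8a, Atp5g2 and Ndufaf3. Leaving out single arrays ended the calls of Sdha, Cox6a1, Cox6a2, Ndufaf3 and Cox8a, among the members chosen by rule to be given with values. Ndufs1 and Uqcrb, chosen after their values were seen, were not followed by name in these runs. Their calls did not both hold without the first BM empty-vector array.

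**Figure D2:**
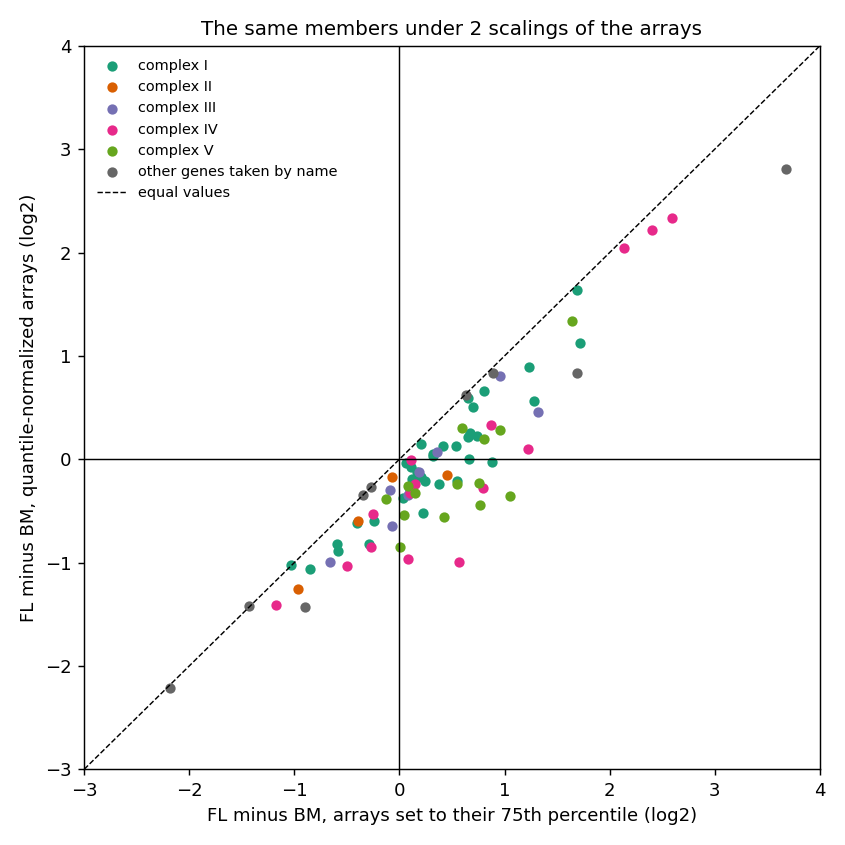
Each point is 1 of the 86 tested genes. Its difference FL minus BM (log2) with arrays set to their 75th percentile is on the horizontal axis and that with quantile-normalized arrays on the vertical axis, coloured by complex. Most points lie under the dashed line of equal values, and Cox6a1 moved from 0.56 to -0.998.

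In complex I, 11 of 36 subunits were higher in FL (30.6%, against 40.1% of all genes) and 5 were lower (13.9%, against 19.5%). The other 20 were not called, and 6 of the 11 and all 5 were stable. Under normexp, however, only Ndufab1 of the 5 falls kept its call. Ndufv3, an accessory subunit of the NADH-binding module, read 4.79 and 4.68 in BM and 6.11 and 6.80 in FL, a rise of 1.72 ± 0.25 (limma adjusted p = 0.00282) that was 1.13 under quantile normalization. Both of its probes were called higher, by 1.72 and 2.78. Ndufa6, Ndufb11, Ndufs8 and Ndufa9 were also stable rises, by 1.23, 1.28, 0.80 and 0.70. All 3 probes of Ndufb11 were called higher, by 1.28 to 2.25, and under quantile normalization its rise was 0.57.

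The falls in complex I included a core subunit as well. Ndufs1, the largest core subunit and a carrier of iron-sulfur clusters, read 4.29 and 4.25 in BM and 3.54 and 3.30 in FL. It fell by 0.85 ± 0.15 (limma adjusted p = 0.00478), while the core subunit Ndufs8 rose by 0.80. Ndufab1, the mitochondrial acyl carrier protein, read 1.80 and 1.75 in BM and 0.74 and 0.73 in FL, with both pairs of arrays close together. It fell by 1.04 ± 0.11 (limma adjusted p = 0.00125). The accessory subunits Ndufb6, Ndufa5 and Ndufb3 fell by 0.59, 0.59 and 0.40, and by 0.82, 0.89 and 0.62 under quantile normalization. For Ndufa5 both probes were called lower, while the second probe of Ndufb6 (-0.19) was not called. Of the 7 core subunits 2 were higher (28.6%, against 40.1% of all genes), 1 was lower (14.3%, against 19.5%) and 4 were not called.

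The factors that assemble complex I held the largest falls. Ndufaf4 read 2.60 and 2.51 in BM and 0.46 and 0.28 in FL under empty vector, and 2.70 and 2.68 with Lin28b against 0.42 and 0.43 with let-7b. The tissues were separated by over 2 units on every array. The fall was 2.18 ± 0.13 (limma adjusted p = 0.000481), and the second probe of Ndufaf4, whose sequence is shown, fell by 2.01. Ndufaf2 read 2.16 and 2.05 in BM and 0.85 and 0.49 in FL, a fall of 1.43 ± 0.16 (limma adjusted p = 0.00124). Ndufaf1 fell by 0.35, and Ndufaf3 rose by 0.63. Atp5sl (Dmac2 in RefSeq), also an assembly factor of complex I, rose by 0.89. These 5 calls were stable under the 3 scalings, although their directions differ. Of Ndufaf1 to Ndufaf4, 1 was called higher (25%, against 40.1% of all genes) and 3 lower (75%, against 19.5%). Under all 3 scalings 24.9% of all genes were called higher and 19.3% lower. Normexp kept the calls of Ndufaf4 and Ndufaf2 and lost those of Ndufaf1 and Ndufaf3 (for Ndufaf3 limma adjusted p = 0.184). The call of Ndufaf3 was also lost without either BM empty-vector array.

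Complex II is the only complex shared with the citric acid cycle, and none of its 4 subunits was called higher (against 40.1% of all genes). Called lower were 2 (50%, against 19.5%). Sdhd, a membrane anchor, read 4.88 on both BM arrays and 4.00 and 3.83 in FL, and fell by 0.97 ± 0.12 (limma adjusted p = 0.00186). Sdha, the flavoprotein, read 4.07 and 3.95 in BM and 3.62 on both FL arrays, a fall of 0.40 ± 0.12 (limma adjusted p = 0.0348). Sdhc, the other anchor, read 2.79 and 2.74 in BM and 2.51 and 2.88 in FL, so the tissues overlapped, and the difference of -0.07 ± 0.18 was not called. Sdhb, the iron-sulfur subunit, read 5.48 and 5.38 in BM and 5.62 and 6.14 in FL, and its difference of 0.45 ± 0.21 was not called (limma adjusted p = 0.106). The call of Sdha was lost when any 1 of the 4 empty-vector arrays or of the 2 Lin28b arrays was left out (limma adjusted p from 0.0537 to 0.183), and that of Sdhd was not. The Sdha call was also lost with a replicate block (limma adjusted p = 0.0528), without the filter on dim probes (limma adjusted p = 0.0630) and in a fit of the 4 empty-vector arrays alone (limma adjusted p = 0.113).

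In complex III, 2 of 8 subunits were higher (25%, against 40.1% of all genes), 1 was lower (12.5%, against 19.5%) and 5 were not called. Uqcrh, the hinge protein, read 5.75 and 5.65 in BM and 6.77 and 7.25 in FL, a rise of 1.32 ± 0.20 (limma adjusted p = 0.00324) that its second probe gave as 1.34. Under quantile normalization the rise of Uqcrh was 0.46, and it was still called (limma adjusted p = 0.0265). Uqcrc1, a core protein, rose by 0.96 ± 0.18. Uqcrb, the ubiquinone-binding protein, read 5.02 and 4.83 in BM and 4.19 and 4.34 in FL, and fell by 0.66 ± 0.15 (limma adjusted p = 0.0113), with 3 of 3 probes called lower and a fall of 0.99 under quantile normalization. The catalytic subunits were not called. Cyc1, cytochrome c1, read 3.96 and 4.03 in BM and 3.88 and 3.93 in FL, a difference of -0.09 ± 0.13, and Uqcrfs1, the Rieske protein, differed by 0.36.

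In complex IV the tissue-restricted and the common isoforms are described apart. Of its tissue-restricted isoforms, the 4 that could be tested were all called higher in FL (against 40.1% of all genes). Of these 4, 3 were stable. Cox4i2, the isoform best known from lung, read -2.96 and -2.94 in BM and -0.30 and -0.41 in FL, a rise of 2.59 ± 0.17 (limma adjusted p = 0.000561), or 6.04-fold. Cox6b2, known from testis, read -2.33 and -2.43 in BM and -0.30 and 0.34 in FL, a rise of 2.41 ± 0.25 (limma adjusted p = 0.00109). Cox7a1, known from heart and skeletal muscle, read 1.56 and 1.37 in BM and 3.20 and 4.00 in FL, a rise of 2.13 ± 0.28 (limma adjusted p = 0.00187). For these 3 genes every FL array, let-7b included, lay at least 1 unit higher than every BM array. Cox6a2, a second muscle isoform, read -3.21 and -3.44 in BM and -2.59 and -2.31 in FL, a rise of 0.87 ± 0.24 that quantile normalization did not call (0.34, limma adjusted p = 0.338). Its call was also lost without either BM empty-vector array or the second FL one (limma adjusted p from 0.0627 to 0.115).

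Their common partners showed no such rise that held under all scalings. Cox4i1, the common isoform of Cox4i2, read 6.39 and 6.20 in BM and 7.196 and 7.84 in FL, a rise of 1.22 ± 0.23 (limma adjusted p = 0.00659) that shrank to 0.10 under quantile normalization. Cox6b1 read 2.85 and 2.71 in BM and 2.70 and 3.09 in FL, and Cox7a2 read 4.94 and 4.91 in BM and 4.74 and 5.41 in FL, so neither separated the tissues. Cox6a1 rose by 0.56 ± 0.19 and Cox8a by 0.80 ± 0.17 at the 75th percentile scaling, but under quantile normalization their differences were -0.998 and -0.28. Of 11 common subunits 3 were higher (27.3%, against 40.1% of all genes) and 2 were lower (18.2%, against 19.5%). The other 6 were not called, and 0 of the 3 rises were stable. The difference between partners was not itself tested. Quantile normalization moved the brightest Ndufb11 probe from 1.28 to 0.57 and the dimmest from 2.25 to 2.07. It moved the brighter Ndufv3 probe from 1.72 to 1.13 and the dimmer from 2.78 to 2.67, although the dim Cox6a2 shrank too. Whether probe brightness, which differs between these isoforms, bears on which rises were stable was not tested.

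Ndufa4 and its paralogue Ndufa4l2 went opposite ways. Ndufa4, first assigned to complex I and now counted as a subunit of complex IV, read 4.70 and 4.59 in BM and 3.39 and 3.55 in FL. It fell by 1.17 ± 0.13 (limma adjusted p = 0.0012). Ndufa4l2, which is known to be induced by hypoxia, read -6.68 and -6.34 in BM and -3.03 and -2.63 in FL and was counted as well above background on all arrays. It rose by 3.68 ± 0.21 (limma adjusted p = 0.000481), more than any other member at the 75th percentile scaling, and by 2.81 under quantile normalization and 2.60 with normexp. Cox7b fell by 0.50 ± 0.15, and by 1.03 under quantile normalization. Cox7a2l, which helps join complexes III and IV into supercomplexes, read 5.59 and 5.42 in BM and 6.86 and 7.53 in FL, a rise of 1.69 ± 0.25 (limma adjusted p = 0.00273). Under quantile normalization the rise of Cox7a2l was 0.83. Of its 3 probes 2 were called higher, and the other differed by 0.76 and was not called (limma adjusted p = 0.0655).

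**Figure D3:**
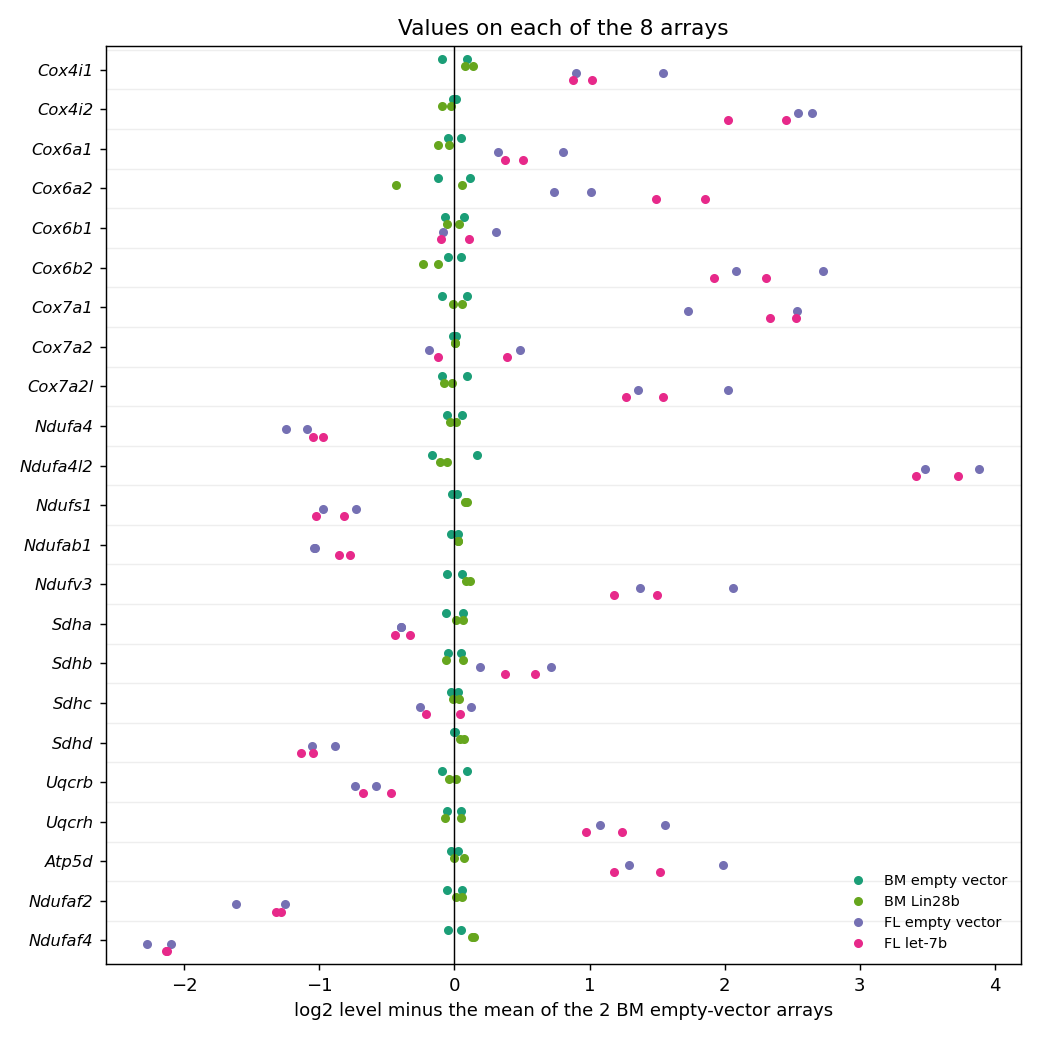
Each row is 1 gene and each point 1 of the 8 arrays, as the log2 level minus the mean of the 2 BM empty-vector arrays of that gene. Lin28b arrays lie beside the BM empty-vector arrays for the genes shown, with Cox6a2 the farthest apart. For Cox4i2, Cox6b2, Cox7a1 and Ndufa4l2 all 4 FL arrays lie to the right of all BM arrays, and for Ndufa4, Sdhd, Ndufaf2 and Ndufaf4 to the left.

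In complex V, 6 of 14 subunits were higher (42.9%, against 40.1% of all genes), 0 were lower (against 19.5%) and 8 were not called. All 5 subunits of F1, the part that makes ATP, were called higher, by 0.76 to 1.64. Atp5d, the delta subunit of the central stalk, read 3.54 and 3.59 in BM and 4.86 and 5.55 in FL, a rise of 1.64 ± 0.26 (limma adjusted p = 0.0034), and it was the only stable rise of the 6. Atp5c1, the gamma subunit, rose by 0.95 ± 0.15 (limma adjusted p = 0.00321) and Atp5a1, the alpha subunit, by 0.80 ± 0.15, and neither was called under quantile normalization (0.28 and 0.20). The second probe of Atp5c1 differed by 0.45 and was not called (limma adjusted p = 0.204). Atp5b, the catalytic beta subunit, rose by 0.76 and Atp5g2, a subunit of the c ring, by 1.06, and both were called lower under quantile normalization (-0.44 and -0.35). Atp5g3, which codes for the same mature c subunit, differed by 0.001 at the 75th percentile scaling and by -0.85 under quantile normalization. No peripheral stalk or small membrane subunit was called at the 75th percentile scaling. Atp5s (Dmac2l in RefSeq), named after ATP synthase but no structural subunit, fell by 0.90 ± 0.12, and by 1.43 under quantile normalization.

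The treated arrays, which share no array with the empty-vector groups but lie on the same slides and in the same fit, gave nearly the same calls. Between FL cells with let-7b and BM cells with Lin28b, 41 of the 44 called members were called again in the same direction (28 higher, 13 lower), and 44 of 44 kept their sign. That is 93.2% of the members called, against 84.3% of all genes called. In that comparison 39.5% of all genes were called higher and 18.5% lower. Not called again were Cox6a1, Ndufa7 and Ndufa5, with differences of 0.52, 0.40 and -0.45.

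With Lin28b in BM cells no member passed the test. Of 86 members 0 were called, as were 0 of 22921 genes (0%), and 0 members had an unadjusted p under 0.05 by limma, against 820 of all genes. The median member differed by 0.004 (Lin28b minus empty vector, log2) and the median of all genes by -0.04. In 81 of 86 members the difference was within 0.15 of 0, and the 95% interval lay within 1 log2 unit either way in 84. The smallest p was that of Atp5j, the F6 subunit of the peripheral stalk, which read 4.95 and 3.84 with empty vector and 4.83 and 4.90 with Lin28b. A single empty-vector array, the second, stood low, and the difference of 0.47 ± 0.35 was not called (limma adjusted p = 1.00). Atp5k, a small membrane subunit, read 5.65 and 5.03 against 5.60 and 5.71, with the same array low. Ndufaf4 and Ndufaf3, next by p, differed by 0.14 and -0.12. On 10 members both Lin28b arrays were higher than both controls and on 9 both were lower, against 18.4% and 32.3% of all genes.

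With let-7b in FL cells no member passed the test either. Of 86 members 0 were called, against 7 of 22921 genes (0.0305%, with 0.0218% higher and 0.00873% lower). The median member differed by -0.06 (let-7b minus empty vector), as did the median of all genes. The member median minus the all-gene median was -0.008, and -0.827 under normexp. Cox6a2 was the 1 member with an unadjusted p under 0.05 by limma, against 2238 of all genes (9.76%). It read -2.59 and -2.31 with empty vector and -1.83 and -1.47 with let-7b, a difference of 0.80 ± 0.24 (limma adjusted p = 0.384) that was 0.75 on slide 2 and 0.85 on slide 3. Cox4i2 read -0.30 and -0.41 with empty vector and -0.49 and -0.93 with let-7b, a difference of -0.35 ± 0.17. Ndufab1 and Ndufa6 followed, at 0.22 ± 0.11 and -0.29 ± 0.16. None of the 4 passed the adjustment. Both let-7b arrays were higher than both controls in 6 members and lower in 10, against 11.9% and 18.2% of all genes. The 95% interval lay within 1 log2 unit either way in 83 of 86 members, and the exceptions were Cox6a2, Ndufv3 and Atp5j. These intervals use the spread pooled with BM, which is narrow for FL.

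**Figure D4:**
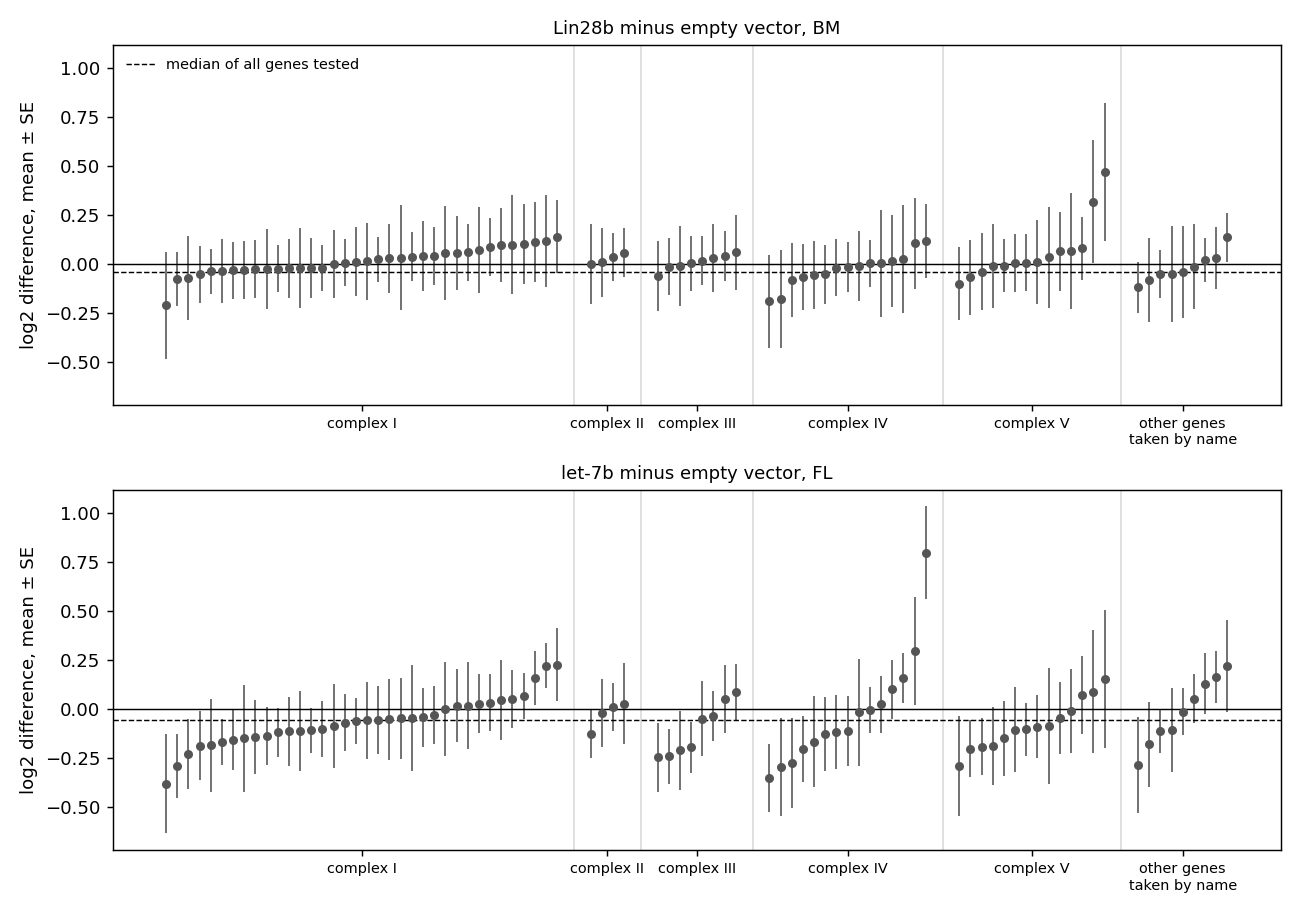
Each point is 1 of the 86 tested genes, as the difference treated minus empty vector (log2) with limma's standard error (2 arrays a group), for Lin28b in BM in the upper panel and let-7b in FL in the lower panel. Dashed lines are the medians of all genes tested (-0.04 and -0.06). No point was called in either panel, and Cox6a2 at 0.80 stands highest in the lower one.

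The members also differed between arrays of a group. In FL the slide cannot be told apart from the replicate number, and on the second array 76 of 86 members (88.4%) read higher than on the first with empty vector, and 74 (86.0%) with let-7b, against 50.4% and 41.9% of all genes. The median step was 0.34 with empty vector and 0.19 with let-7b. In BM, where all 4 arrays lay on 1 slide, the second array read higher in 14 members (16.3%) with empty vector and in 67 (77.9%) with Lin28b, against 49.5% and 56.6% of all genes. The median steps there were -0.09 and 0.04. Within slide 2, 36 members were lower with let-7b, and within slide 3, 65 were, against 52.3% and 60.1% of all genes. On both slides 32 members (37.2%) were lower, against 35.3% of all genes. The part of the slide in the tissue differences was not tested, since no BM array lay on slides 2 and 3.

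The wider mitochondrial gene lists also split between the tissues and had 0 calls with Lin28b or let-7b (0% and 0.0305% of all genes). Beside the tissue counts below, 40.1% of all genes were called higher in FL and 19.5% lower. Of 39 further assembly factors 5 were higher in FL and 15 lower, and the strongest calls were Timmdc1 (3.16) and Ttc19 (2.21), factors of complexes I and III, and Sco1 (-1.18), a copper chaperone of complex IV. Of 80 mitochondrial ribosomal proteins 13 were higher and 23 lower, led by Mrpl37 (1.63), Mrpl50 (-1.29) and Mrpl47 (-1.18). Of 16 genes for electron carriers and coenzyme Q synthesis 0 were higher and 7 lower. Cycs, cytochrome c, read 5.67 and 5.71 in BM and 4.19 and 3.86 in FL, a fall of 1.67 ± 0.15, and Pdss1 and Coq5, enzymes of coenzyme Q synthesis, fell by 1.78 and 0.94. Of 17 citric acid cycle and pyruvate dehydrogenase genes 3 were higher and 5 lower, and Dld, Suclg2 and Suclg1 fell by 1.65, 1.47 and 0.67. Of 11 genes for ATP export and uncoupling 3 were higher (Ucp2, Ucp3 and Vdac1, by 0.89, 0.82 and 0.73) and 3 were lower, although Ucp3 and Vdac1 were not called under quantile normalization.

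Among 21 regulators of mitochondrial biogenesis 3 were higher and 10 lower, beside 40.1% and 19.5% of all genes. Ppargc1a, a coactivator of mitochondrial genes, read -1.14 and -1.20 in BM and 0.37 and 0.36 in FL, a rise of 1.53 ± 0.14. Its relative Ppargc1b fell by 1.70 ± 0.17, and Tfam and Mterf3, which act on mitochondrial DNA and its transcription, fell by 0.93 and 1.23. The 12 mitochondrially encoded subunits tested had 4 higher and 2 lower. ND6, which is encoded on the opposite strand from the other mitochondrial subunits, rose by 3.69 ± 0.35 and ND1 fell by 1.10 ± 0.14, while COX2 rose by 1.69 at the 75th percentile scaling and differed by -0.06 under quantile normalization. With Lin28b all 12 had a negative difference, with a median of -0.10, and none was called. Of 12 hypoxia-regulated genes 9 were higher in FL and 0 lower. Slc16a3, the lactate exporter, read -1.75 and -1.79 in BM and 5.36 and 6.04 in FL, a rise of 7.47 ± 0.26, and Bnip3 and Ldha rose by 3.29 and 2.07, of which Ldha was not called under quantile normalization (0.29).

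Markers of other cells moved with the tissue too, where 40.1% of all genes were called higher in FL and 19.5% lower. The summed level of 7 myeloid markers tested was 3.18 to 3.25 in BM and 4.84 to 5.93 in FL with empty vector, with 3 called higher and 1 lower. That of 8 stromal markers was 3.22 to 3.50 in BM and 2.11 to 2.12 in FL, with 1 called higher and 4 lower. With the treatments the stromal sum was 4.09 to 4.66 (Lin28b) and 2.48 to 3.36 (let-7b). The 4 erythroid markers tested summed to -3.06 to -3.01 in BM and -2.53 to -1.78 in FL, with 2 called higher and 0 lower. The 3 hepatocyte markers summed to -2.04 to -1.96 in BM and -1.66 to -1.49 in FL, with 1 called higher and 0 lower and a median difference of -0.58. Their part in the differences of the members was not tested.

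RefSeq promoter windows (GRCm38.p6, 250 bases before to 50 after the gene start) were matched for 72 of the 89 members. They were searched on both strands for the palindromic core motif of NRF1, CCGGAAG (ETS factors, which include GABP), AAGATGGCG (YY1) and TCAAGGTCA (estrogen-related receptors), factors known to act on respiratory genes. At least 1 motif lay in 29 members (40.3%), against 12.5% of 27025 genes. NRF1 letters were in 6 members (8.33%, against 1.07% of genes), ETS letters in 17 (23.6% against 9.93%), YY1 letters in 8 (11.1% against 1.64%) and estrogen-related receptor letters in 2 (2.78% against 0.466%). Of the stable rises 13 had a window, and 1, 2, 2 and 0 of them held these motifs in that order. Of the stable falls 12 had one, and 1, 3, 0 and 1 held them. The letters thus occurred among members that rose, fell and were not called. Shown 5′ to 3′ on the gene's strand are the 250 bases before the start of Ndufaf4 (chr4:24897833-24898082, plus strand), a stable fall with the NRF1 letters, and of Ndufb6 (chr4:40279422-40279671, minus strand), a stable fall with the ETS letters in reverse. Cox6a1 (chr5:115348959-115349208, minus strand), whose direction turned with the scaling, holds both. Motif letters are in capitals, and those in the Ndufaf4 window are the NRF1 motif searched.
Ndufaf4: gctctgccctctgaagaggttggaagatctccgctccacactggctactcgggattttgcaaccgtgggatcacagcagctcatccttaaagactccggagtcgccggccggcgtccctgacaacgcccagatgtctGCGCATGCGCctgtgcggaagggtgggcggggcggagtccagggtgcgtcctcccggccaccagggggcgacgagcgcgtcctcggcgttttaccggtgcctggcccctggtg
Ndufb6: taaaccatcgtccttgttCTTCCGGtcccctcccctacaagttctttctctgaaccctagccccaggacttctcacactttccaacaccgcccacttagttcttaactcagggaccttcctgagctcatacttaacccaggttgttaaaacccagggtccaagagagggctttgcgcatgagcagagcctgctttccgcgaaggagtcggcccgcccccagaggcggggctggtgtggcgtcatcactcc
Cox6a1: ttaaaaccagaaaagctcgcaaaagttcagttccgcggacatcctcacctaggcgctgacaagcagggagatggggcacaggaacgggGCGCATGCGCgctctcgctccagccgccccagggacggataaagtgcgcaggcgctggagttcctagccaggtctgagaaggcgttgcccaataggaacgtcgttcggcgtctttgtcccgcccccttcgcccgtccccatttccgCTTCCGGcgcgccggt

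Where a member had 2 or more kept probes, the probes mostly moved together. This held for 23 genes with 53 probes, of which 0 had probes called in opposite directions. Signs differed in Sdhc (-0.07 and 0.004) and in Cox7c, a common subunit of complex IV. For Cox7c the brightest probe read 4.52 and 4.37 in BM and 4.05 and 4.35 in FL and was not called, while the dimmest read -3.96 and -3.65 in BM and -2.90 and -2.06 in FL and was called higher by 1.32 ± 0.31.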

How the data were processed

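Spot intensities were deposited as scanner output, background-corrected with Agilent Feature Extraction 9.5.3.1, per the file headers. A further table, deposited by the authors, holds normalized log2 values, with the method not given in the sources used here. It served as an alternative within a tissue only. From the processed signal, log2 minus each array's 75th percentile was taken over 43020 non-control spots. Copies of a probe were averaged, and 31 probes with an outlier spot were left out, as were 10988 well above background on fewer than 2 arrays, which kept 28410 of 39429. The kept probe of highest mean stood for a gene. limma 3.58.1 (R 4.3.3; lmFit, eBayes) fitted 1 mean per group over 8 arrays. Calls rest on spread shared between genes (prior degrees of freedom 1.69), since an exact permutation test of 2 against 2 arrays cannot go below p = 0.333 (two-sided). The number of arrays limits the precision. Groups and replicate numbers are those of the labels. The labels tie no number to a sort, so p-values measure only the spread between these arrays, which may be technical.

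Genes given with values by array were the 6 largest rises and 6 largest falls among called members, or the 4 smallest p where none was called, the 2 smallest p in each complex, complex II and the isoform families. Others that are named, such as Ndufs1, Cox7c and those given by a difference alone, were chosen after their values were seen. One result is not reported here. Members and lists were chosen with earlier results of these data known. Alternatives were normexp background correction (offset 50), quantile scaling, median centring (added after seeing the data), no filter, a replicate block, the 4 arrays of 2 groups alone and each array left out. Scripts were tested on simulated data. Figures used Python 3.11.15 and matplotlib 3.10.9.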

Additional observations from a re-analysis of the deposited data

How the results depend on the processing

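With Lin28b and with let-7b, 0 members were called under every alternative run, and the named genes kept their side of the threshold. With let-7b the member median minus the all-gene median was -0.008, and -0.827 under normexp correction of the background. Leaving out 1 array gave 0.0054 to 0.0798 with Lin28b and -0.209 to 0.164 with let-7b.

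Between the tissues, normexp called 12 members higher and 4 lower, with a median minus the all-gene median of -0.881, against -0.288. Without the filter on dim probes that value was -0.733. Quantile scaling called 16 higher and 28 lower, and turned Cox6a1 to -0.998, Cox8a to -0.28, Atp5g2 to -0.35 and Atp5g3 to -0.85. Fitted on the 4 empty-vector arrays alone, 8 were lower. Leaving out 1 array gave 17 to 44 higher, 7 to 13 lower and a median of -0.381 to -0.0178. The count lower was 9 without either Lin28b array and 7 without the first BM empty-vector array. The count higher was 19 without that array and 17 without the second, and 44 without the first FL empty-vector array, which also gave the median of -0.0178. Without the second BM array Atp5j was called lower (-0.68), and without the first FL array Sdhb was called higher (0.71). The calls of Ndufaf3 without either BM empty-vector array, of Cox8a without the second, and of Cox6a1 without any array but the first FL empty-vector one were lost. The cause of these changes was not tested.

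Same-numbered arrays deviated together in FL (correlation 0.517), where the number goes with the slide, and not in BM (-0.0556). The main fit pairs no arrays, so its let-7b standard errors and p-values leave the FL slides out. With the replicate number as a block within tissue, 36 members were higher (41.9%, against 46.1% of all genes) and 11 lower (12.8%, against 20.7%) between tissues, and 0 were called with either treatment. The dim FL arrays limit what can be read of weak probes.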
